A study of Homo sapiens with 24 samples.

Results

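NPPB, EDN1, KISS1, SOST, DMBT1, THBD, TGM2, CLIC5 and NRIP1 are 9 genes whose RNA was lower in MDA-MB-231 control cells on matrigel than on plates. They are 9 of the 37247 gene ids in the deposited tables and were matched by Ensembl id. All 9 were among the 14986 genes that passed the filter on low counts. The genes were chosen by their fall from plate to matrigel in the control libraries, so every value that uses those libraries is given as a description, with no test. The tests concern the 3 lines that carry an MRTF-A construct, whose libraries the rule did not read. The genes were listed with earlier results of these data known, so these tests may not be independent of the choice.

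MDA-MB-231 is an established human breast cancer line with mesenchymal features. The study used a control line and lines that overexpress MRTF-A from a doxycycline-inducible construct, either wild type (WT MRTF-A OX) or in a mutant form named dSAP or dSRF. The labels do not describe what the mutant forms lack. Each line was grown either on culture plates (2D) or on top of matrigel in medium with 2% matrigel (3D), in 10% fetal bovine serum. Cells of every line, control included, received 1 ug/ml doxycycline for 72 h before RNA was collected. Each of the 8 groups (2 cultures by 4 lines) had 3 libraries, which makes 24. Nothing in the labels states that replicates came from separate cultures or whether a line is 1 clone, so p-values measure the spread between these libraries, which may be technical.

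MRTF-A is a coactivator that binds actin monomers. When actin polymerises it enters the nucleus and acts with the transcription factor SRF on genes of the cytoskeleton, adhesion and matrix. Matrigel is a soft basement membrane extract, and cells on it spread less than on plastic. Of the genes described, 4 encode secreted signals: NPPB the B-type natriuretic peptide, EDN1 the vasoconstrictor endothelin-1, KISS1 the kisspeptin precursor first known as a metastasis suppressor, and SOST the Wnt inhibitor sclerostin. DMBT1 encodes a secreted scavenger receptor cysteine-rich glycoprotein, and THBD encodes thrombomodulin, the surface receptor that turns thrombin towards activation of protein C. TGM2 encodes tissue transglutaminase, which crosslinks proteins. CLIC5 encodes a chloride intracellular channel family protein bound to the cortical actin linkers of the ezrin family. NRIP1 encodes RIP140, a corepressor of nuclear receptors.

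The libraries held 13968829 to 23023415 estimated counts (median 18154538). Levels below are CPM, estimated counts divided by the TMM-scaled library total. MRTFA, the induced gene, was at most 39.1 CPM in control libraries and at least 664 CPM in libraries of the construct lines. The lowest of these, 664 CPM, was library 1 of 3D dSRF, and the next lowest construct library had 3170 CPM. Library 1 of 3D dSRF also stood apart from its group over all genes. Its log2 CPM correlated at 0.952 with the mean of the other libraries of its group, against 0.976 and 0.980 for libraries 2 and 3. With the mean of 2D dSRF it correlated at 0.971, and libraries 2 and 3 did so at 0.972 and 0.974. Results on dSRF cells on matrigel are therefore given with and without it. Groups were taken from sample titles, and the genotype field of the labels differed from the title in 16 of 24 libraries. All 7 markers listed for MDA-MB-231 were detected (summed level 4456 to 6550 CPM). EDN1 and THBD are best known from endothelium, and of 8 endothelial markers EGFL7 (18.0 to 46.5 CPM), ESAM (5.49 to 34.5 CPM) and VWF (0 to 36.0 CPM) were detected, while PECAM1, CDH5, TEK and ERG reached at most 0.720 CPM and CLDN5 was at 0. The sum of the 8 ran from 56.1 to 74.0 CPM in the 2D groups, and in 3D from 37.1 to 38.9 CPM in control, 39.1 to 42.9 CPM in WT, 46.0 to 51.6 CPM in dSAP and 49.7 to 78.2 CPM in dSRF. Its part in the results was not tested. The 7 luminal epithelial markers summed to between 5287 and 9237 CPM in dSRF libraries and to at most 1239 CPM elsewhere, carried by KRT8 and KRT18. EPCAM (15.3 to 124 CPM), GATA3 (5.71 to 29.6 CPM) and FOXA1 (0 to 19.5 CPM) were also detected, CDH1 reached 2.52 CPM and ESR1 0.070 CPM. The 6 leukocyte markers, of which CD68 and CD14 passed the filter, summed to between 145 and 221 CPM in dSRF and to at most 59.1 CPM elsewhere. PTPRC, CD3E and LYZ were at most at 0.174 CPM. The sum of the 5 fibroblast markers ran from 15.3 to 121 CPM in 3D dSRF and from 24.1 to 56.0 CPM elsewhere. Their part in the dSRF results below was not tested.

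Promoter sequence is shown for EDN1 and CLIC5, which correlated at 0.928 over the 24 libraries of both cultures. On matrigel alone they parted in WT cells, at 108% and 30.5% of the mean of control cells on plates. Sequence is also shown for NRIP1, which like them stayed near its plate level in dSRF cells, and for KISS1, which did not in 2 of 3 libraries. The 250 bases before the start site are given 5′ to 3′ on the gene's strand, from RefSeq entries on GRCh38.p14, with matches to AGATAA, the core of a GATA site, in capitals (TTATCT where the match is on the other strand).
EDN1, chr6:12290111-12290360, plus strand: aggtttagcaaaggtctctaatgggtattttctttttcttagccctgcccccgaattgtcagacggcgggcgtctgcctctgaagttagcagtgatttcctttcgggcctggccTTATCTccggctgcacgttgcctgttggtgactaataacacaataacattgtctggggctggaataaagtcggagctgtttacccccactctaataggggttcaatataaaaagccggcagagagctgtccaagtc
CLIC5, chr6:46080349-46080598, minus strand: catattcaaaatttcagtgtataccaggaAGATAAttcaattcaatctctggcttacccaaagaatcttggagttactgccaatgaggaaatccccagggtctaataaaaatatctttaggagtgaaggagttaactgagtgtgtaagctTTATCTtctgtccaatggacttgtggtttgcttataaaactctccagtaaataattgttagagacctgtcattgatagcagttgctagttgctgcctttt
NRIP1, chr21:15065001-15065250, minus strand: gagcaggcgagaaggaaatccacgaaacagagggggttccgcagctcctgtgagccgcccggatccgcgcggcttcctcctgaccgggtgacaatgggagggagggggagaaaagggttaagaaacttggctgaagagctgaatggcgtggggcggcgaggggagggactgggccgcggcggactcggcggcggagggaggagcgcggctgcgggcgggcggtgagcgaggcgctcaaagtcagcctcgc
KISS1, chr1:204196492-204196741, minus strand: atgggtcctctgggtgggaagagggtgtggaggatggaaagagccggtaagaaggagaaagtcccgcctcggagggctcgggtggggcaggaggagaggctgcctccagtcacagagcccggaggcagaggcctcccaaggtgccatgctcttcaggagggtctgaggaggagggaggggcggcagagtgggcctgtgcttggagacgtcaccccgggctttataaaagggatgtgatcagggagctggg

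Of the 9 genes, 6 had entries in the promoter table, 12 in all, each with 250 bases before and 50 after a start site. The motifs searched, on both strands of all 35116 windows, were the CArG box of SRF, TGANTCA of AP-1, CATTCC of TEAD factors and AGATAA. A CArG box was present in 1.29% of all windows, TGANTCA in 7.71%, CATTCC in 14.0% and AGATAA in 10.3%. In the 12 windows, AGATAA began 136 bases before the EDN1 start shown and 221 and 100 bases before the CLIC5 start shown (46080348), and CATTCC began 129 bases before an upstream EDN1 start at 12290014. These matches did not overlap each other. The CLIC5 start shown was chosen with its matches known and is not that of the principal GENCODE transcript, at 46015860, whose window held none of the motifs; the EDN1, NRIP1 and KISS1 starts shown are principal ones. No window of the 6 genes held the letters of a CArG box or of TGANTCA. CLIC5, NRIP1 and EDN1 had 3 entries each, and counts per gene do not tell which start was used.

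On plates, TGM2 was the most abundant of the 9 genes in control cells per length of transcript, at 426 TPM, the authors' deposited length-scaled unit. NRIP1 (40.2 TPM), KISS1 (38.5 TPM), THBD (36.1 TPM), NPPB (32.9 TPM) and EDN1 (21.8 TPM) followed, and SOST (8.53 TPM), DMBT1 (8.02 TPM) and CLIC5 (6.33 TPM) were lowest. The falls that chose the genes differed widely in size. Ordered by the fitted fall among all 14986 genes, NPPB ranked 5, DMBT1 32, KISS1 33, SOST 36 and CLIC5 49, while EDN1 ranked 143, TGM2 222, NRIP1 431 and THBD 1032. In RNA of whole cultures, fewer cells that express a gene and less RNA per cell cannot be told apart. By library, the 3 control libraries on matrigel lay below all 3 on plates for each of the 9 genes, which the choice of genes made likely. The share of all genes that part in this way was not counted. By the test, a different measure, 24.4% of all genes (3651 genes) were called lower in control cells on matrigel. Nothing is read from the members' count against it.

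**Figure D1:**
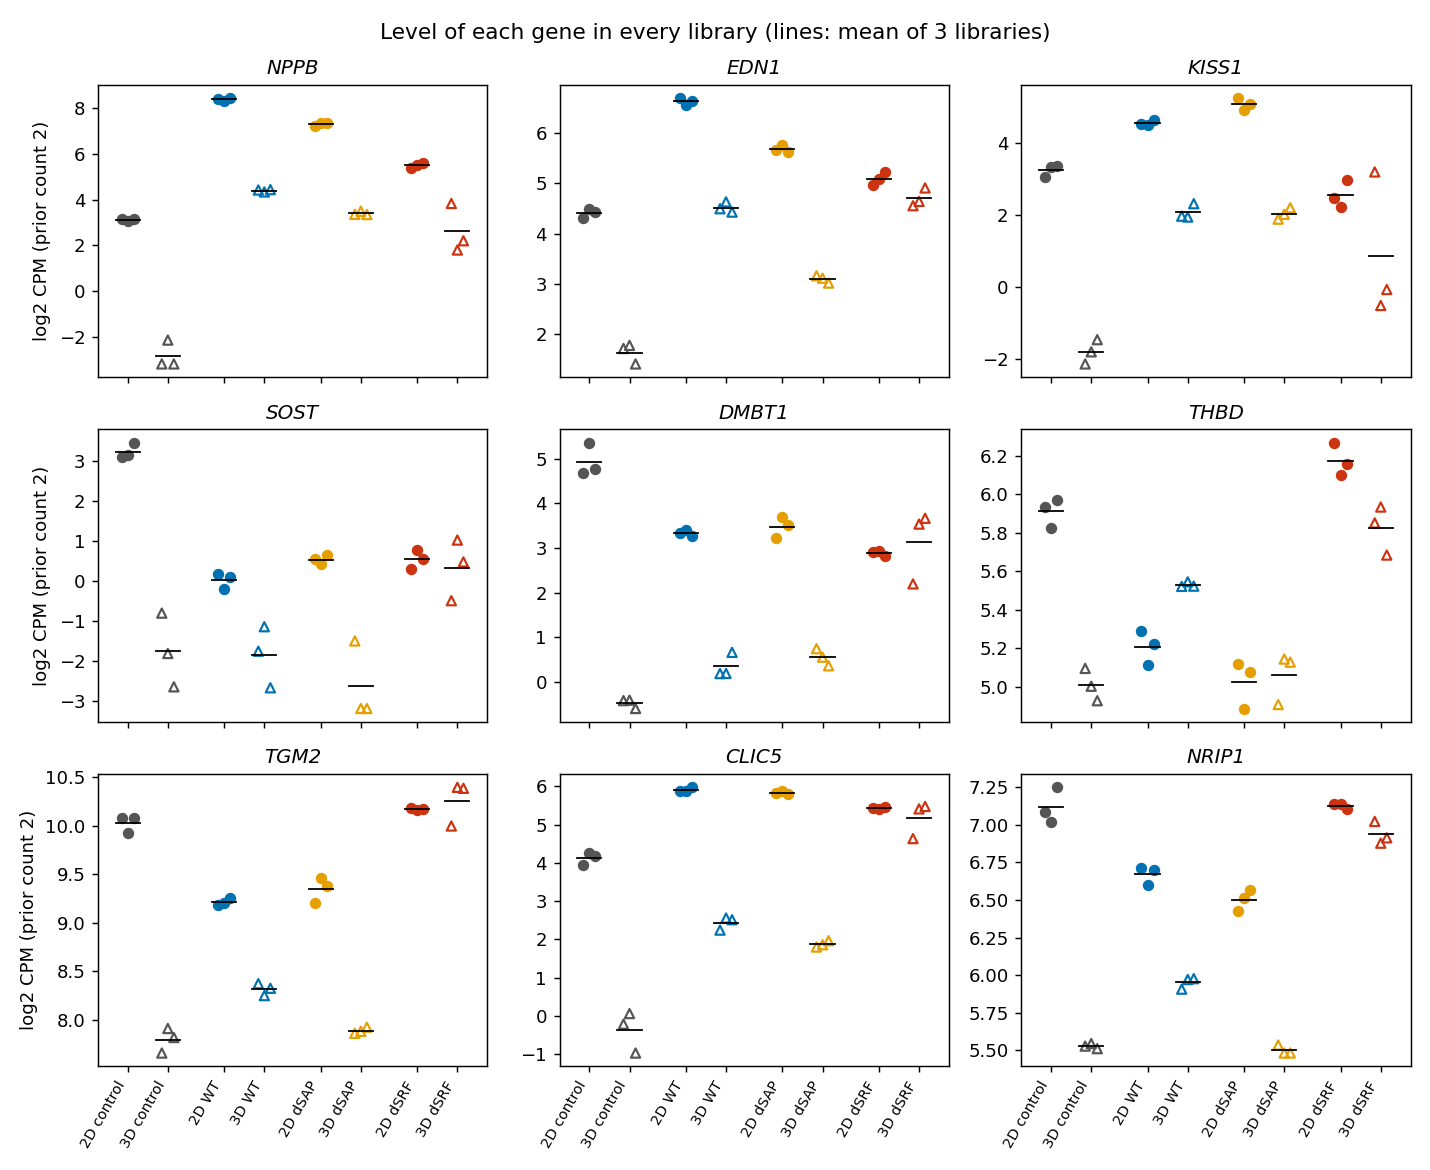
Log2 CPM (prior count 2) of each of the 9 genes in every library, filled circles for plates (2D) and open triangles for matrigel (3D), with the mean of 3 libraries as a line. Each panel has its own axis. Control triangles lie below control circles in every panel. On these axes the dSRF triangles lie near the dSRF circles for EDN1, SOST, DMBT1, TGM2, CLIC5 and NRIP1. For all of these but NRIP1, library 1 of 3D dSRF is the lowest triangle of its group. Nearness is by the axis of the panel: THBD, not among these, changed in dSRF about as much as EDN1.

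NPPB (chromosome 1, 11857464 to 11858931, minus strand, GRCh38) was almost lost by control cells on matrigel and was far above control in all 3 construct lines. In control libraries 1, 2 and 3 it was 8.84, 8.22 and 8.86 CPM in 2D and 0, 0.117 and 0 CPM in 3D. The 3D control group held 2 counts in all, so no fold is given against it. On plates NPPB was 336, 316 and 344 CPM in WT, 150, 163 and 164 CPM in dSAP and 41.0, 45.7 and 48.7 CPM in dSRF. The 4 lines did not overlap there, and WT was highest. On matrigel it was 21.3, 20.04 and 21.5 CPM in WT, 10.1, 11.1 and 10.1 CPM in dSAP and 14.1, 3.36 and 4.49 CPM in dSRF. The level fell in every construct line, yet in WT and dSAP the level left on matrigel still exceeded that of control cells on plates. The log2 fold change of 3D against 2D was -3.99 ± 0.28 in WT (standard error, 3 libraries a group, adjusted p = 1.73e-09) and -3.93 ± 0.29 in dSAP (adjusted p = 3.48e-09). In dSRF it was -2.59 ± 0.29 (adjusted p = 8.61e-06), and without library 1 it was -3.52 ± 0.11 (adjusted p = 1.87e-17).

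EDN1 (chromosome 6, 12290363 to 12297194, plus strand) was back at the plate level of control cells on matrigel in WT and dSRF, from very different starting points. Control libraries had 19.6, 22.2 and 21.5 CPM in 2D and 3.19, 3.33 and 2.56 CPM in 3D, a log2 difference of -2.80 ± 0.11. In WT it was 103, 94.1 and 98.3 CPM in 2D and 22.4, 24.6 and 21.4 CPM in 3D. The 3D WT values overlapped those of 2D control. In dSAP it was 50.6, 54.2 and 48.7 CPM in 2D and 8.85, 8.55 and 7.99 CPM in 3D. In dSRF it was 31.1, 33.8 and 37.0 CPM in 2D and 23.3, 24.8 and 29.8 CPM in 3D. The WT and dSAP lines thus lost most of a high plate level, while the dSRF line lost a small part of a lower one. The log2 change on matrigel was -2.11 ± 0.09 in WT (adjusted p = 1.65e-12), -2.59 ± 0.10 in dSAP (adjusted p = 6.42e-13) and -0.39 ± 0.09 in dSRF (adjusted p = 0.00604).

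KISS1 (chromosome 1, 204190341 to 204196486, minus strand) depended on 1 library in dSRF cells on matrigel. In control libraries it was 8.12, 9.95 and 10.2 CPM in 2D and 0.116, 0.175 and 0.251 CPM in 3D. In WT it was 22.7, 22.4 and 24.5 CPM in 2D and 3.78, 3.72 and 4.84 CPM in 3D. WT libraries were above control libraries in both cultures. In dSAP the values were 37.7, 30.0 and 34.0 CPM in 2D, the highest of the 8 groups, and 3.57, 3.92 and 4.47 CPM in 3D. In dSRF they were 5.43, 4.54 and 7.65 CPM in 2D and 9.02, 0.587 and 0.838 CPM in 3D. Library 1 of 3D dSRF was above every library of 2D dSRF, and the other two were below. The log2 change on matrigel was -2.49 ± 0.54 in WT (adjusted p = 7.63e-04), -3.09 ± 0.54 in dSAP (adjusted p = 1.24e-04) and -0.72 ± 0.55 in dSRF (adjusted p = 0.404). Without library 1 the dSRF change was -3.04 ± 0.24 (adjusted p = 2.16e-10), so KISS1 fell there as well.

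SOST (chromosome 17, 43753731 to 43758788, minus strand) reached its control plate level on matrigel in no line and was already low on plates in all 3 construct lines. Control libraries had 8.46, 8.67 and 10.8 CPM in 2D and 0.464, 0.175 and 0.0502 CPM in 3D. On plates SOST was 1.02, 0.769 and 0.955 CPM in WT, 1.35, 1.23 and 1.45 CPM in dSAP and 1.11, 1.61 and 1.34 CPM in dSRF. All 9 of these libraries lay below all 2D control libraries. On matrigel it was 0.187, 0.343 and 0.0475 CPM in WT, 0.245, 0 and 0 CPM in dSAP and 0.602, 1.92 and 1.28 CPM in dSRF. These are few molecules: the 3D groups held 12 counts in control, 11 in WT, 5 in dSAP and 76 in dSRF. SOST fell in WT (-2.26 ± 0.67, adjusted p = 0.00870) and dSAP (-3.88 ± 0.73, adjusted p = 2.30e-04). All 5 counts of 3D dSAP were in library 1: without it the group was at 0 and the fitted change was -7.61, a value that depends on the prior count, and without library 2 or 3 it was -3.32 or -3.37. In dSRF the change was -0.11 ± 0.52 with a 95% interval from -1.22 to 1.00 (adjusted p = 0.918), and 0.24 ± 0.47 without library 1.

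DMBT1 (chromosome 10, 122560665 to 122643736, plus strand) was, like SOST, below control on plates in every construct line and highest on matrigel in dSRF. In control libraries it was 25.5, 40.8 and 27.0 CPM in 2D and 0.638, 0.643 and 0.552 CPM in 3D. In WT it was 9.96, 10.5 and 9.55 CPM in 2D and 1.03, 1.03 and 1.47 CPM in 3D. WT was below control on plates and above it on matrigel. In dSAP it was 9.24, 12.8 and 11.4 CPM in 2D and 1.57, 1.36 and 1.17 CPM in 3D. In dSRF it was 7.45, 7.55 and 6.98 CPM in 2D and 4.47, 11.5 and 12.6 CPM in 3D. The dSRF libraries on matrigel did not overlap any other 3D group, and libraries 2 and 3 were above all 3 dSRF libraries on plates. DMBT1 fell in WT (-3.07 ± 0.31, adjusted p = 1.32e-07) and dSAP (-3.01 ± 0.30, adjusted p = 1.48e-07). The dSRF change was 0.37 ± 0.26 (adjusted p = 0.358), and without library 1 it was a rise of 0.72 ± 0.16 (adjusted p = 8.04e-04). DMBT1L1, a related gene, had at most 3 counts in a library.

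THBD (chromosome 20, 23045633 to 23049741, minus strand) had the smallest fall in control cells and was the one gene that did not fall on matrigel in WT or dSAP. Control libraries had 61.1, 56.6 and 62.6 CPM in 2D and 34.1, 32.0 and 30.3 CPM in 3D. In WT it was 39.0, 34.5 and 37.2 CPM in 2D and 45.8, 46.6 and 45.9 CPM in 3D. WT cells thus started lower than control cells and ended higher. In dSAP it was 34.6, 29.5 and 33.6 CPM in 2D and 29.9, 35.3 and 34.9 CPM in 3D. In dSRF it was 76.9, 68.5 and 71.3 CPM in 2D and 57.6, 61.0 and 51.3 CPM in 3D. The dSRF line had the highest level of the 4 lines in both cultures. THBD rose in WT by 0.32 ± 0.08 (adjusted p = 0.00233) and fell in dSRF by 0.35 ± 0.08 (adjusted p = 0.00394; fell by 0.37 without library 1). In dSAP the change was 0.03 ± 0.08 with a 95% interval from -0.14 to 0.20 (adjusted p = 0.771).

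TGM2 (chromosome 20, 38127387 to 38166578, minus strand, overlapping RPRD1B on the other strand) fell on matrigel in WT and dSAP cells and did not fall in dSRF cells. Control libraries had 1079, 973 and 1085 CPM in 2D and 202, 240 and 225 CPM in 3D. In WT it was 582, 588 and 609 CPM in 2D and 331, 304 and 320 CPM in 3D. WT cells had less TGM2 than control cells on plates and more on matrigel. In dSAP it was 587, 706 and 665 CPM in 2D and 232, 236 and 243 CPM in 3D, the latter overlapping 3D control. In dSRF it was 1162, 1147 and 1156 CPM in 2D and 1022, 1347 and 1338 CPM in 3D. These were the highest levels of the 4 lines in either culture. TGM2 fell in WT (-0.90 ± 0.09, adjusted p = 9.29e-08) and dSAP (-1.46 ± 0.09, adjusted p = 1.75e-10). The dSRF change was 0.10 ± 0.09 with a 95% interval from -0.09 to 0.28 (adjusted p = 0.482), and 0.22 ± 0.06 without library 1 (adjusted p = 0.00729).

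CLIC5 (chromosome 6, 45880827 to 46080348, minus strand) was above control in every construct line and both cultures. Control libraries had 15.4, 19.0 and 18.2 CPM in 2D and 0.754, 0.935 and 0.401 CPM in 3D. On plates it was 58.9, 58.6 and 62.7 CPM in WT, 56.6, 58.2 and 55.6 CPM in dSAP and 42.8, 42.4 and 43.9 CPM in dSRF. All 9 of these libraries lay above all control libraries, and dSRF was the lowest of the 3 construct lines. On matrigel it was 4.63, 5.78 and 5.60 CPM in WT, 3.37, 3.52 and 3.80 CPM in dSAP and 24.7, 42.4 and 44.3 CPM in dSRF. The lines parted on matrigel, where dSRF libraries 2 and 3 were at their plate level and library 1 was lower. CLIC5 fell in WT (-3.49 ± 0.18, adjusted p = 1.57e-11) and dSAP (-3.99 ± 0.18, adjusted p = 4.23e-12). The dSRF change was -0.22 ± 0.15 with a 95% interval from -0.54 to 0.11 (adjusted p = 0.362), and 0.0082 ± 0.085 without library 1 (adjusted p = 0.952).

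NRIP1 (chromosome 21, 14961235 to 15065936, minus strand, overlapping non-coding loci on both strands) moved with TGM2. Control libraries had 136, 130 and 152 CPM in 2D and 46.0, 46.5 and 45.4 CPM in 3D. In WT it was 105, 97.0 and 104 CPM in 2D and 59.9, 62.6 and 62.8 CPM in 3D. In dSAP it was 85.8, 91.4 and 94.6 CPM in 2D and 46.2, 44.5 and 44.6 CPM in 3D. The dSAP level on matrigel overlapped that of control cells there. In dSRF it was 141, 141 and 138 CPM in 2D and 130, 118 and 120 CPM in 3D. The dSRF line kept most of its level. NRIP1 fell by 0.72 ± 0.06 in WT (adjusted p = 3.50e-09), by 1.01 ± 0.06 in dSAP (adjusted p = 5.35e-11) and by 0.19 ± 0.05 in dSRF (adjusted p = 0.0208; 5.71e-04 without library 1). The dSRF call on NRIP1 was lost on log2(TPM + 1) values (adjusted p = 0.175), with no filter (0.0622) and without either of the other 3D dSRF libraries (0.0952 and 0.0718).

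**Figure D2:**
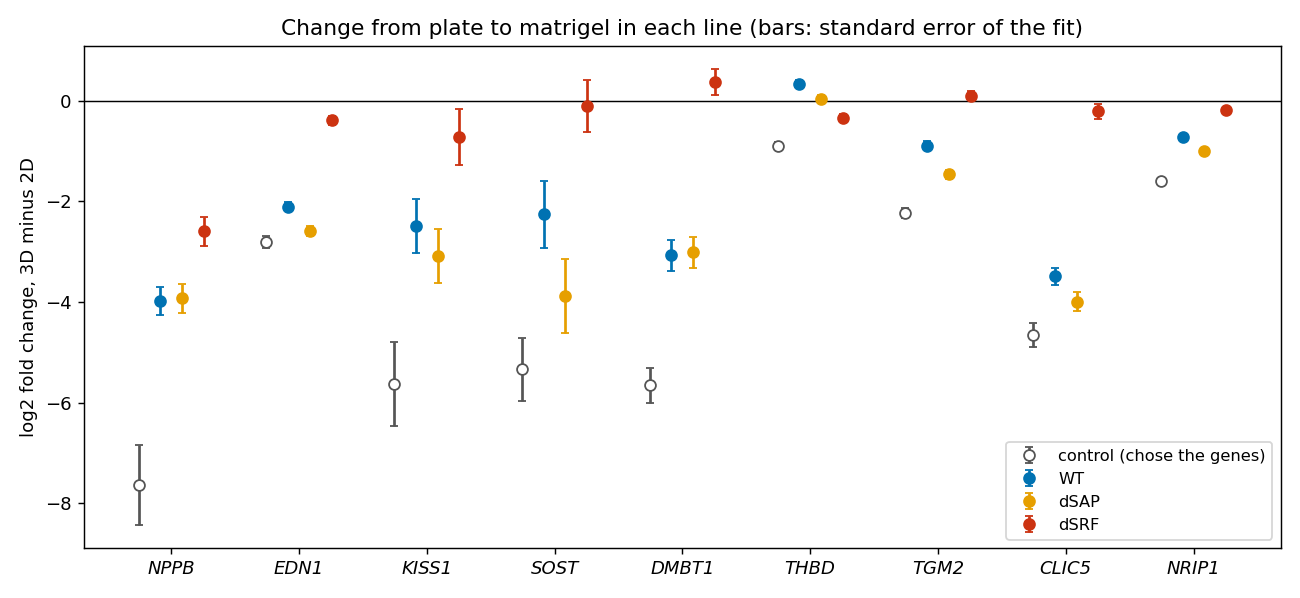
Log2 fold change from plate to matrigel (3D minus 2D) of the 9 genes in each line, with the standard error of the fit from 3 libraries a group. Open circles are the control line, which chose the genes; its NPPB point rests on 2 counts in 3D and depends on the prior count. WT and dSAP points are below 0 except for THBD, and dSRF points lie between -0.72 and 0.37 except for NPPB.

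Counted over the genes, 8 of 9 fell on matrigel in WT and 1, THBD, rose, while 25.7% of all genes were called lower and 24.4% higher. In dSAP the same 8 fell, against 23.5% of all genes. In dSRF 4 fell (NPPB, EDN1, THBD and NRIP1), against 9.84% of all genes. The members' median log2 change was -2.26 in WT, -3.01 in dSAP and -0.22 in dSRF, and the median of all genes tested was 0.0041, 0.011 and -0.018. Without library 1 of 3D dSRF, 7 of the 9 passed the test in dSRF, as did 7351 genes of the whole table: NPPB, EDN1, KISS1, THBD and NRIP1 fell and DMBT1 and TGM2 rose. In an edgeR fit to the 6 dSRF libraries alone, 0 of 14117 genes passed, the 9 included, and 1848 genes and 3 of the 9 had an unadjusted p under 0.05. DESeq2 on the same libraries called 561 genes, of the 9 only NPPB.

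**Figure D3:**
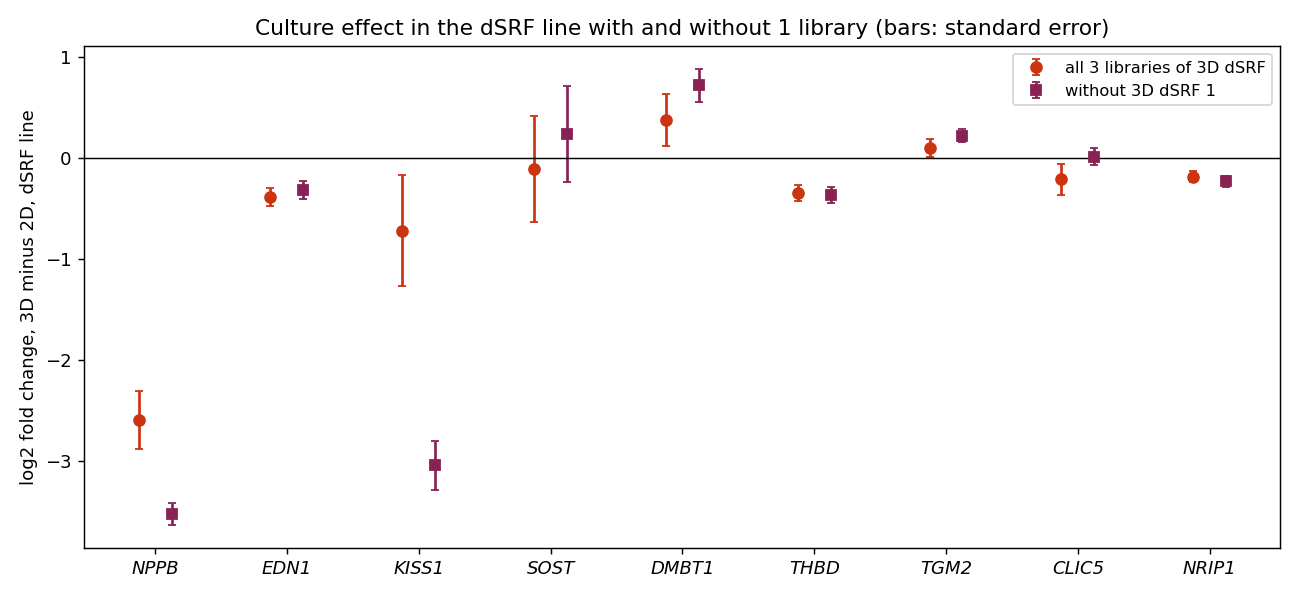
Log2 fold change from plate to matrigel in the dSRF line for the 9 genes, with all 3 libraries of 3D dSRF (circles) and without library 1 (squares). Bars are standard errors of the fit. KISS1 moves from -0.72 to -3.04 and NPPB from -2.59 to -3.52 when the library is left out, and the other 7 genes move less.

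The changes on matrigel were then compared between lines. The change in dSRF was above that in WT for 6 genes and below it for THBD, so 7 of 9 differed, against 33.0% of all genes in either direction. The largest differences were those of DMBT1 (3.44 ± 0.40, adjusted p = 2.59e-06) and CLIC5 (3.28 ± 0.23, adjusted p = 5.14e-09). EDN1 differed by 1.72 ± 0.13 (adjusted p = 9.58e-09), TGM2 by 0.99 ± 0.12 (adjusted p = 4.79e-06) and NRIP1 by 0.53 ± 0.08 (adjusted p = 2.65e-05). For these 5 genes the loss seen in WT was smaller in dSRF, or did not pass there, by more than the spread between libraries. NPPB differed by 1.39 ± 0.39 (adjusted p = 0.00895), which became 0.46 without library 1 (adjusted p = 0.0129) and did not pass on log2(TPM + 1) values (adjusted p = 0.0537). SOST (2.15 ± 0.85, adjusted p = 0.0599) and KISS1 (1.77 ± 0.76, adjusted p = 0.0828) did not pass. Without library 1 SOST passed (2.50, adjusted p = 0.00876), and KISS1 was -0.55 (adjusted p = 0.141). Between dSAP and WT, 1 of 9 differed, against 1.38% of all genes: TGM2 fell further in dSAP, by -0.57 ± 0.12 (adjusted p = 0.0251; 0.0822 on log2(TPM + 1) values, and 0.0506 to 0.0694 without any of 10 single libraries). Between dSAP and dSRF all 9 differed, 8 of them with the lower change in dSAP, against 27.6% of all genes in either direction. For KISS1 that difference was -2.36 ± 0.76 (adjusted p = 0.0267) and -0.05 without library 1 (adjusted p = 0.970). That of SOST was -3.77 ± 0.92 (adjusted p = 0.00446), -3.21 or -3.26 without library 2 or 3 of 3D dSAP and -7.50 without library 1. That of NPPB (-1.34 ± 0.40, adjusted p = 0.0167) was -0.41 without library 1 of 3D dSRF (adjusted p = 0.0377) and did not pass on log2(TPM + 1) values (adjusted p = 0.0816), and that of THBD (0.38 ± 0.11, adjusted p = 0.0146) did not in a fit to the libraries compared (adjusted p = 0.133).

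On matrigel itself, dSRF cells had more SOST, DMBT1, THBD, TGM2, CLIC5 and NRIP1 than WT cells and less NPPB. These 7 of 9 stand against 65.9% of all genes called in either direction, so the share is near that of all genes and is not a result about the 9. In size, the log2 difference of dSRF from WT was 3.00 ± 0.31 for DMBT1 (adjusted p = 5.17e-08), 2.80 ± 0.17 for CLIC5 (adjusted p = 3.74e-11) and 2.71 ± 0.65 for SOST (adjusted p = 0.00105). For TGM2 it was 1.96 ± 0.09 (adjusted p = 4.33e-13), for NRIP1 0.99 ± 0.05 (adjusted p = 6.85e-12) and for THBD 0.30 ± 0.08 (adjusted p = 0.00232). NPPB was lower by -1.48 ± 0.29 (adjusted p = 1.86e-04). EDN1 (0.19 ± 0.09, 95% interval -0.01 to 0.38, adjusted p = 0.0778) and KISS1 (-0.20 ± 0.56, 95% interval -1.38 to 0.98, adjusted p = 0.769) did not pass. Without library 1 all 9 passed, and genes called in the whole table rose from 9869 to 11107, so that count is not a result about the 9 either. In that fit NPPB was -2.41, KISS1 -2.52 ± 0.25 (adjusted p = 1.21e-09) and EDN1 0.26 (adjusted p = 0.00933).

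The dSAP line had less than the WT line of 5 of the 9 genes on matrigel, against 6.63% of all genes. EDN1 was lower by -1.43 ± 0.10 on the log2 scale (adjusted p = 6.31e-09), the largest of these differences, and NPPB by -1.005 ± 0.28 (adjusted p = 0.0249). THBD (-0.47 ± 0.08, adjusted p = 4.12e-04), NRIP1 (-0.45 ± 0.06, adjusted p = 1.25e-05) and TGM2 (-0.43 ± 0.09, adjusted p = 0.00226) were lower by less. The NPPB call was lost without any of the 6 libraries of the 2 groups (adjusted p from 0.0550 to 0.0872), and that of TGM2 on log2(TPM + 1) values (adjusted p = 0.0670). CLIC5 was -0.58 ± 0.20 (adjusted p = 0.0626), and passed without library 1 of 3D dSRF, a library outside the comparison (adjusted p = 5.67e-04). KISS1 (-0.05 ± 0.56, 95% interval -1.23 to 1.13), SOST (-1.07 ± 0.92, -3.01 to 0.87) and DMBT1 (0.21 ± 0.35, -0.53 to 0.96) did not pass. Against dSRF, dSAP cells on matrigel had less of 7 genes (32.9% of all genes were called lower), with log2 differences from -0.76 for THBD to -3.78 for SOST. The SOST value was -3.22 or -3.27 without library 2 or 3 of 3D dSAP and -7.51 without library 1, which held all its counts there. NPPB (0.48, adjusted p = 0.180) and KISS1 (0.15, adjusted p = 0.828) did not pass, but without library 1 were higher in dSAP by 1.41 (adjusted p = 4.26e-10) and 2.46 (adjusted p = 2.07e-09).

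**Figure D4:**
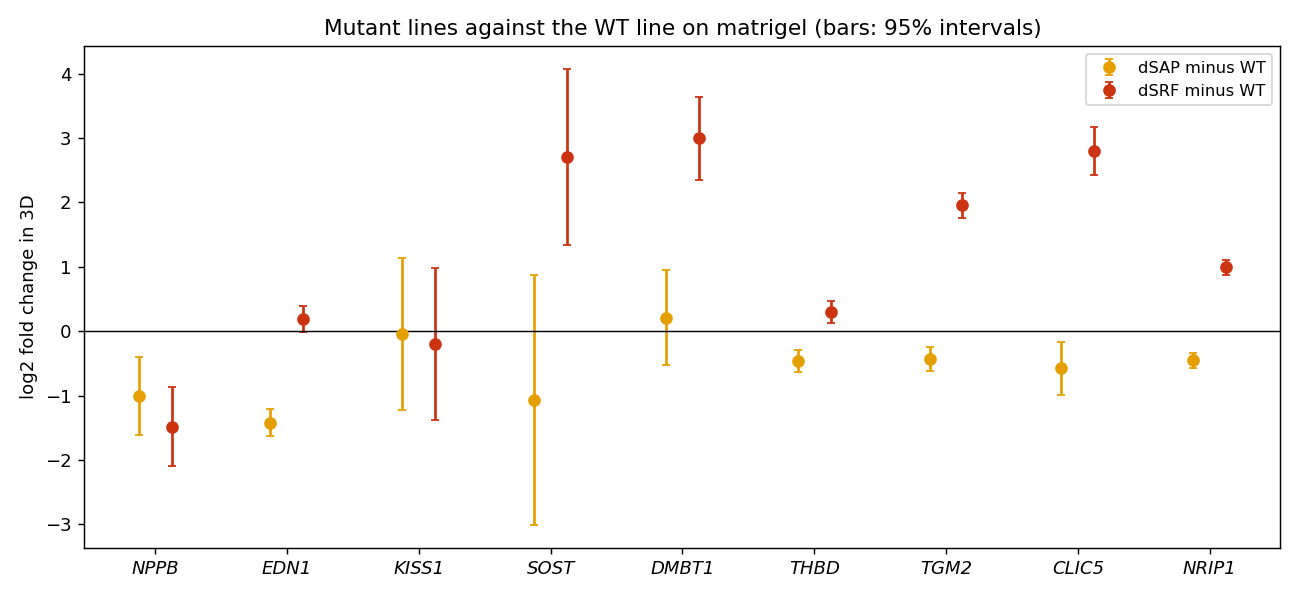
Log2 fold change of the dSAP line (yellow) and the dSRF line (red) against the WT line on matrigel for the 9 genes, with 95% intervals from 3 libraries a group. The dSRF points for SOST, DMBT1, TGM2, CLIC5 and NRIP1 lie between 0.99 and 3.00, and the dSAP points for EDN1, NPPB, THBD, TGM2 and NRIP1 lie between -1.43 and -0.43.

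On plates the lines also differed from each other. NPPB, EDN1 and KISS1 were lower in dSRF than in WT, by -2.88 ± 0.26 (adjusted p = 1.78e-08), -1.53 ± 0.09 (adjusted p = 2.50e-11) and -1.97 ± 0.52 (adjusted p = 0.00292), and CLIC5 by -0.48 ± 0.15 (adjusted p = 0.00951). THBD (0.97 ± 0.08, adjusted p = 2.62e-09), TGM2 (0.96 ± 0.09, adjusted p = 1.13e-08) and NRIP1 (0.46 ± 0.05, adjusted p = 4.70e-07) were higher in dSRF. CLIC5 was therefore lower in dSRF than in WT on plates and higher on matrigel. These 7 of 9 again stand against 64.0% of all genes, and the CLIC5 call was lost on log2(TPM + 1) values (adjusted p = 0.438). In dSAP against WT on plates, NPPB (-1.06 ± 0.24, adjusted p = 0.00622), EDN1 (-0.94 ± 0.09, adjusted p = 6.79e-07) and NRIP1 (-0.17 ± 0.05, adjusted p = 0.0464) were lower, against 7.71% of all genes. The NRIP1 call was lost under several alternatives, among them no filter (adjusted p = 0.0858). Between dSAP and dSRF on plates 8 of 9 differed, against 65.0% of all genes, with NPPB, EDN1, KISS1, DMBT1 and CLIC5 higher in dSAP. The DMBT1 call (0.60 ± 0.26, adjusted p = 0.0494) was lost with RLE scaling (0.0541) and with DESeq2 (0.0627), and that of CLIC5 (0.40 ± 0.15, adjusted p = 0.0265) on log2(TPM + 1) values (0.228).

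The level of the genes on matrigel in each line was described against the mean of control cells on plates. The construct and other differences between the lines cannot be told apart here. The 3D control level was 0.451% of it for NPPB, 14.3% for EDN1, 1.92% for KISS1, 2.47% for SOST, 1.97% for DMBT1, 53.5% for THBD, 21.3% for TGM2, 3.98% for CLIC5 and 33.0% for NRIP1. In WT on matrigel the percentages were 242% for NPPB, 108% for EDN1, 76.7% for THBD, 44.3% for NRIP1, 43.7% for KISS1, 30.5% for TGM2, 30.5% for CLIC5, 3.79% for DMBT1 and 2.07% for SOST. NPPB and EDN1 were the genes whose mean in WT was above that of control cells on plates. In dSAP they were 121% for NPPB, 55.5% for THBD, 42.3% for KISS1, 40.1% for EDN1, 32.4% for NRIP1, 22.6% for TGM2, 20.4% for CLIC5, 4.39% for DMBT1 and 0.875% for SOST. In dSRF they were 212% for CLIC5, 123% for EDN1, 118% for TGM2, 94.3% for THBD, 88.1% for NRIP1, 84.7% for NPPB, 36.9% for KISS1, 30.6% for DMBT1 and 13.6% for SOST. Without library 1 of 3D dSRF, KISS1 was 7.56% and NPPB 45.4%, CLIC5 was 247%, EDN1 129%, TGM2 128%, THBD 93.4%, NRIP1 85.5%, DMBT1 38.7% and SOST 17.2%. In mean CPM on matrigel, KISS1, SOST, DMBT1, THBD and NRIP1 were below the mean of control cells on plates in all 4 lines. For THBD and NRIP1 the libraries of 3D dSRF overlapped those of 2D control. In TPM, mean THBD was 37.3 in 3D dSRF and 36.1 in 2D control, and mean NRIP1 was 39.4 and 40.2.

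**Figure D5:**
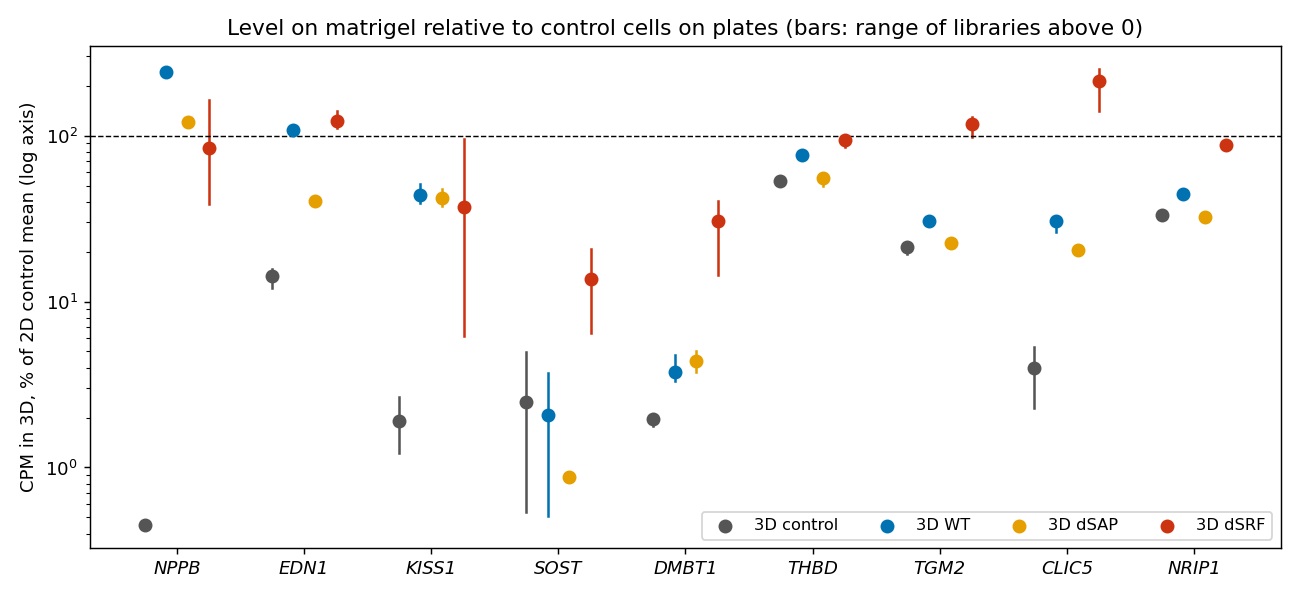
Mean CPM on matrigel as a percentage of the mean of control cells on plates (log axis; dashed line at 100%) for the 9 genes in the 4 lines, with bars over the range of libraries above 0. The dSRF points for EDN1, TGM2 and CLIC5, the WT points for NPPB and EDN1 and the dSAP point for NPPB are above the line. SOST is at 13.6% or less in every line.

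By library, all 3 WT libraries on matrigel lay above all 3 control libraries for 8 of 9 genes, SOST being the exception, against 26.8% of all genes tested and 45.8% of the 3651 genes called lower in control. For dSAP this held for 5 genes (NPPB, EDN1, KISS1, DMBT1 and CLIC5), against 27.3% and 46.6%. For dSRF it held for all 9, against 31.0% and 47.4%. All 3 libraries on matrigel reached the lowest control library on plates for NPPB and EDN1 in WT, against 17.6% of the 3651 genes, and for NPPB in dSAP, against 15.5%. In dSRF they did so for EDN1, TGM2 and CLIC5, against 28.7%, and for the same 3 genes without library 1. These counts use the control libraries that chose the genes and are descriptions. The log2 difference from 3D control in WT was 2.95 ± 0.26 for CLIC5, 2.92 ± 0.11 for EDN1 and 0.43 ± 0.06 for NRIP1. In dSAP the values were 2.37 ± 0.28 for CLIC5, 1.49 ± 0.12 for EDN1 and -0.03 ± 0.06 for NRIP1. In dSRF they were 5.75 ± 0.23, 3.10 ± 0.11 and 1.42 ± 0.06. KISS1 was 4.24 ± 0.90 above 3D control in dSRF, and 1.92 ± 0.43 without library 1.

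On plates, the genes split by their level in the construct lines against control. NPPB, EDN1, KISS1 and CLIC5 were above all control libraries in WT and dSAP (28.5% and 26.8% of all genes), and the other 5 genes were below all of them (30.2% and 26.6%). Mean NPPB on plates was 3842% of control in WT, 1839% in dSAP and 522% in dSRF. For the genes below control, the WT level was 73.1% for NRIP1, 61.4% for THBD, 56.7% for TGM2, 32.2% for DMBT1 and 9.82% for SOST. In dSRF, NPPB, EDN1, THBD, TGM2 and CLIC5 were above all control libraries on plates (38.4% of all genes), KISS1, SOST and DMBT1 were below (35.8%), and NRIP1 overlapped control.

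The 24 libraries gave the 9 genes several shared patterns, described here by Pearson correlation of log2 CPM, in which the points share lines and cultures. TGM2 and NRIP1 correlated at 0.973, EDN1 and CLIC5 at 0.928, NPPB and EDN1 at 0.924, NPPB and KISS1 at 0.919 and SOST and DMBT1 at 0.892. KISS1 and THBD, at 0.038, were the least alike. Among all other genes with a mean of at least 1 CPM, those most like NPPB were AP2S1 (0.964), LUZP1 (0.964) and CCN2 (0.956), the last a matricellular protein gene. ACTN4 (0.983), which encodes an actinin, and GAB2 (0.970) were among those most like EDN1. BDNF (0.978), NLRP10 (0.976) and PDZD2 (0.972) were most like KISS1. For CLIC5 they were DAB2 (0.987), ZFAND3 (0.981) and RAB11A (0.975), for TGM2 NIPAL1 (0.973), NRIP1 (0.973) and NNMT (0.969), and for NRIP1 TGM2 (0.973), PPP1R9A (0.963) and PM20D2 (0.961). DMBT1 was most like ARHGEF17 (0.952), LRRC41 (0.946) and DYNLRB1 (0.941), SOST like NANOS1 (0.928), CTSB (0.916) and LAPTM5 (0.916), and THBD like LAMA5 (0.888), NBL1 (0.884) and PLAT (0.882). THBD thus had no gene as close as the other 8 had.

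Genes that work beside the 9 were counted from lists, with all 3 libraries of 3D dSRF. Without library 1 of 3D dSRF the genes called in dSRF rose from 2551 to 7351, and the lists were not counted that way. A list gene that did not pass in dSRF is thus not shown to be unchanged there. Of all genes tested, 24.4% were called lower and 23.0% higher on matrigel in control, 25.7% and 24.4% in WT, 23.5% and 24.2% in dSAP and 9.84% and 7.19% in dSRF, and each count below stands against these shares. Of 14 genes of coagulation and fibrinolysis at the cell surface, the setting of THBD, 8 were called lower and 1 higher on matrigel in control, 5 and 1 in WT, 7 and 3 in dSAP and 0 and 4 in dSRF. Their median log2 change was -0.53, -0.36, -0.31 and 0.24. PLAU, the urokinase gene, changed by -1.11, -0.91, -1.03 and 0.74 in the 4 lines, and PROCR, the protein C receptor that works with thrombomodulin, by -0.69, -0.82, -0.51 and -0.11. PLAU passed in each line, and PROCR in all but dSRF (adjusted p = 0.247). TFPI2, of the same list, did not fall: it changed by -0.02 in control (adjusted p = 0.873), 0.25 in WT, 0.17 in dSAP and 0.68 in dSRF. It passed in WT (adjusted p = 0.0245) and dSRF (adjusted p = 2.85e-05). Of 7 CLIC and ERM genes, the setting of CLIC5, 5 were lower in control, 6 in WT, 5 in dSAP and 0 in dSRF, and 1 was higher, in dSRF. CLIC6 fell by 0.77, 0.97 and 0.86 in control, WT and dSAP and was at -0.07 in dSRF (adjusted p = 0.292). MSN, which encodes moesin, fell by 0.28, 0.38 and 0.43 in those lines and rose by 0.36 in dSRF (adjusted p = 2.31e-05).

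Lists around the secreted signals held members of both directions. Of 8 endothelin and natriuretic peptide genes measured, 2 were lower and 3 higher in control, 1 and 4 in WT, 2 and 4 in dSAP and 1 and 1 in dSRF. FURIN, a protease of precursor proteins, fell by 0.41, 0.29 and 0.29 in control, WT and dSAP, and did not pass in dSRF (adjusted p = 1). ECE1, which makes active endothelin, rose in all 4 lines, by 0.33, 0.24, 0.38 and 0.32. Of 7 Wnt and BMP antagonists and sclerostin receptors, 4 were lower and 1 higher in control, 1 and 1 in WT, 2 and 3 in dSAP and 0 in dSRF. DKK1, a Wnt inhibitor like SOST, changed by -3.09, -2.35 and -2.33 in control, WT and dSAP and by 0.56 in dSRF, where it did not pass (adjusted p = 0.590). The sclerostin receptor gene LRP4 rose by 1.00, 1.02 and 1.07 in those 3 lines and was 0.21 in dSRF (adjusted p = 0.394). Of 11 corepressors and partners of NRIP1, 6 were lower and 2 higher in control, 5 and 1 in WT, 5 and 1 in dSAP and 0 in dSRF. Of 11 retinoid genes, 3 were lower and 4 higher in control, 2 and 4 in WT, 2 and 4 in dSAP and 3 and 1 in dSRF. The kisspeptin partner GNAQ fell in all 4 lines, by 0.28, 0.42, 0.41 and 0.20. The 2 other transglutaminase genes measured, TGM1 and TGM5, were called in none of the 4 lines, and of 3 scavenger receptor and mucin genes 1 was lower and 1 higher in control, 0 and 1 in WT, 1 and 2 in dSAP and 1 and 0 in dSRF. MUC1 rose in control, WT and dSAP by 0.77, 1.58 and 1.62, and SCARA3 fell in control, dSAP and dSRF by 0.86, 0.69 and 0.57.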

How the data were processed

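RNA of 24 libraries was measured by sequencing. The labels' protocols describe kit-extracted total RNA and an Illumina stranded preparation with Ribo-Zero Plus, whereas their molecule field says polyA RNA. The authors ran FastQC and quantified reads with Salmon (11.3 as written) on hg38, per the submitters' processing notes. The annotation and the strand setting of the counting are not given in the sources used here. In the files the authors deposited estimated counts per gene, which were rounded, and TPM per gene, used for levels between genes and as an alternative.

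GENCODE 29 gave a symbol for 34436 of the 37247 ids. The counts were fitted with edgeR 4.0.16 (R 4.3.3): filterByExpr, TMM factors (0.890 to 1.09), 1 robust quasi-likelihood model of 8 groups with 16 residual degrees of freedom, and Benjamini-Hochberg adjustment over all 14986 genes tested, called under 0.05. Adjusted p-values are from this fit unless an alternative is named. The common biological coefficient of variation was 13.1%, and mitochondrial genes held 0.398% to 1.45% of counts. No pair of replicates agreed within sampling noise (lowest chi-square per degree of freedom 2.55). Members had 12 tested comparisons.

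The members, related lists and markers were chosen with earlier results of these data known. Named genes were the 9 members, the 3 genes most correlated with each over the 24 libraries (log2 CPM, prior count 2, mean at least 1 CPM), up to 3 genes of each related list with the lowest p in a construct line, and MRTFA. One of the genes most correlated with EDN1 is not reported here. Alternatives were RLE factors, no filter, a replicate block, only the libraries compared, DESeq2 1.42.0, limma 3.58.1 (trend) on log2(TPM + 1) and log2(TPM + 0.1), and each library left out in turn. Promoters were taken from RefSeq entries (NPPB, THBD and TGM2 had none). Figures were drawn with Python 3.11.15.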

Additional observations from a re-analysis of the deposited data

Results flagged for a closer look

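The values below were picked out because the change from plate to matrigel differed between lines by the test of that difference itself (edgeR quasi-likelihood, adjusted over all genes). Between dSRF and WT, the log2 change in dSRF was above that in WT by 3.44 for DMBT1, 3.28 for CLIC5, 1.72 for EDN1, 1.39 for NPPB, 0.99 for TGM2 and 0.53 for NRIP1. For THBD it was -0.67, since THBD rose on matrigel in WT and fell in dSRF. Between dSAP and dSRF, the difference was -3.78 for CLIC5, -3.77 for SOST, -3.39 for DMBT1, -2.36 for KISS1, -2.20 for EDN1, -1.56 for TGM2, -1.34 for NPPB and -0.82 for NRIP1, and 0.38 for THBD. Between dSAP and WT it was -0.57 for TGM2. The KISS1 value rests on library 1 of 3D dSRF: without it the difference of dSAP from dSRF was -0.05. Without the same library the NPPB differences were 0.46 (dSRF from WT) and -0.41 (dSAP from dSRF). The size of the SOST value depends on library 1 of 3D dSAP, which held all 5 SOST counts of its group. Without it the fitted difference was -7.50 (adjusted p = 4.35e-04). Without library 2 or 3 it was -3.21 or -3.26 (adjusted p = 0.0162 and 0.0151). MRTFA was at 664 CPM in library 1 of 3D dSRF and at 4840 and 4857 CPM in the other 2 of its group. Whether the induction level bears on the values was not tested.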

How the results depend on the processing

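Of the 108 tested member values, the direction and side of the threshold stayed for 107 with RLE factors, 102 with no filter, 103 with DESeq2, 93 on log2(TPM + 1), 92 on log2(TPM + 0.1) and 90 of the 107 that could be fitted to only the libraries compared. Leaving out each library in turn kept 2484 of 2592. Without library 1 of 3D dSRF the count of all genes called rose in each of the 12 tested comparisons.

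For 3D against 2D within dSRF, 0 members and 0 genes were called with only the libraries compared (edgeR; 1848 genes at an unadjusted p under 0.05, and 561 genes and 1 member called by DESeq2 on those libraries, an alternative chosen after seeing the data), 2 members on log2(TPM + 0.1), and 1693 and 1609 genes on log2(TPM + 1) and log2(TPM + 0.1), against 2551. Single libraries left out gave 3 to 7 members and 1599 to 7351 genes. For dSAP against WT in 2D, 1 member was called on log2(TPM + 0.1), and 4288 genes with only the libraries compared against 1919, with 1171 to 4220 when a library was left out. For dSAP against WT in 3D, 3 members were called on log2(TPM + 0.1), and 4607 genes with only the libraries compared against 1810, with 1186 to 4149 when a library was left out. For the difference in culture change between dSAP and WT, 6 members were called with only the libraries compared, 3 with DESeq2, and 0 and 0 on the 2 TPM scales, with 0 to 4 when a library was left out. Genes called for it were 99 with no filter, 2196 with only the libraries compared, 468 with DESeq2, 66 on log2(TPM + 1) and 56 on log2(TPM + 0.1) against 207, with 82 to 1791 when a library was left out. Between dSAP and dSRF, 2560 genes were called with only the libraries compared against 4132, with 3460 to 6456 when a library was left out. Members whose 3D WT libraries reached the lowest 2D control library numbered 1 to 2 when a library was left out. For 3D dSRF they were 5 on deposited TPM, where THBD and NRIP1 joined EDN1, TGM2 and CLIC5. The share of all genes was not counted on TPM, so nothing about the members is read from that count. The causes were not tested.

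Values that changed sign were CLIC5 for dSAP against WT in 2D (0.11 on log2(TPM + 1), 0.12 on log2(TPM + 0.1)), SOST for dSAP against dSRF in 2D (0.0087 with no filter), KISS1 for dSAP against WT in 3D (0.10 and 0.11 on the TPM scales) and DMBT1 for the culture change of dSAP against WT (-0.097 on log2(TPM + 1)). With a library left out, THBD in dSAP ran from -0.034 to 0.10, and in dSRF SOST ran from -0.53 to 0.24 and CLIC5 from -0.36 to 0.0082. SOST for dSAP against dSRF in 2D ran from -0.13 to 0.12. In 3D, KISS1 ran from -0.14 to 0.085 for dSAP against WT, from -2.52 to 0.28 for dSRF against WT and from -0.33 to 2.46 for dSAP against dSRF. For culture changes, DMBT1 ran from -0.075 to 0.26 (dSAP against WT) and KISS1 from -0.55 to 2.25 (dSRF against WT).

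With the replicate block, NRIP1 for dSAP against WT in 2D was no longer called (adjusted p = 0.0548), CLIC5 for dSAP against WT in 3D became called (adjusted p = 0.0456), and no other member call changed. The numbers do not pair the libraries: over 84 same-numbered pairs the correlation of deviations ran from -0.131 to 0.122, and a library correlated best with its own number in 23.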
